A study of Saccharomyces cerevisiae with 8 samples.

Results

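The response of grr1-deficient budding yeast to tunicamycin was read from 4 of the 8 RNA-seq libraries of the study, chosen by their labels: 2 libraries of grr1-deficient cells at 4 h of tunicamycin and 2 of the same strain at 0 h, numbered as biological replicates 1 and 2. The remaining 4 libraries, 2 of wild-type (WT) cells at 4 h and 2 at 0 h, served to pool the estimate of the spread and to show where the grr1-deficient response differed. All cells were of the W303 background and grew in SC medium with 2% glucose at 30 °C. Tunicamycin was added at 1 µg/ml at an OD600 of 0.2, and the labels describe the mutation only as grr1-deficient. Untreated cells at 4 h were not analysed here, so 4 h in culture and 4 h of tunicamycin cannot be told apart. The question addressed is how cells without Grr1 change their transcripts under ER stress.

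Tunicamycin blocks the first step in building the N-linked glycan, and unglycosylated proteins then misfold in the endoplasmic reticulum (ER). In budding yeast the sensor Ire1 responds by splicing HAC1 mRNA, and the Hac1 protein made from it binds promoter elements of ER chaperone, folding and transport genes, the unfolded protein response (UPR). Grr1 picks substrates for an SCF ubiquitin ligase through its F-box, and it is known for the turnover of G1 cyclins and of the Mth1 and Std1 regulators of hexose transport.

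GRR1 itself was nearly silent in all 4 libraries. GRR1 exons held 6 and 12 reads in grr1-deficient cells at 4 h, against 2 and 3 reads at 0 h, where libraries hold 4885844 to 12380049 reads in genes. Its coding region held 0 and 0 reads at 4 h, against 0 and 1 at 0 h. WT exons held 1794 and 1829 reads at 4 h, against 1179 and 1384 at 0 h. Replicate 2 stood apart from replicate 1 at both times, among other things in its mitochondrially encoded genes, whose reads other than those on Q0092 numbered 1095064 and 100 at 4 h, against 889787 and 192 at 0 h, in replicates 1 and 2. The reading frame Q0092 ran the other way, with 258 and 94706 reads at 4 h, against 144 and 18668 at 0 h. The part of this difference in the nuclear results was not tested, but results that lean on a library are given with and without it. In what follows, the value of replicate 1 stands before that of replicate 2, and a library left out is one of the 4 grr1-deficient libraries unless WT is named. STE2, the alpha-factor receptor of MATa cells, had 948 and 1445 reads at 4 h, against 904 and 852 at 0 h. Read numbers in this paragraph are not scaled to library size. The libraries held 8155337 and 12380049 reads in genes at 4 h, against 8256539 and 4885844 at 0 h. The 4 MATalpha-specific genes summed to 48.07 and 56.26 CPM at 4 h, against 17.89 and 27.45 CPM at 0 h, while the 7 MATa-specific genes summed to 553.1 and 684.8 CPM at 4 h, against 557.1 and 648.2 CPM at 0 h. Of 3 MATalpha-specific genes tested 2 were called higher, STE3 at 1.32 and SAG1 at 1.09, and 1 without either replicate 2 library. The alpha-factor gene MF(ALPHA)1 had 2 and 28 reads at 4 h, against 0 and 8 at 0 h.

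Promoter elements known to answer Hac1 were looked up in the 500 bases before the start codon of the 12 nuclear genes that rose most in the weaker of their replicates. The windows below are 30 bases from the RefSeq annotation and sequence of build R64, on the strand of the gene. They are shown because they hold either the UPRE-1 core CAGCGTG or the UPRE-2 core TACGTG (capitals), the second also in its reverse complement CACGTA, and R64 is not W303.
KAR2, chrX:381156-381185, plus strand: gaggaactggaCAGCGTGtcgaaaaagttg
ERO1, chrXIII:13296-13325, minus strand: aacgatacggagTACGTGtcataaaaactt
SIL1, chrXV:267614-267643, minus strand: atgtgaaaaggcCACGTAaatgatagagca
YET2, chrXIII:350104-350133, plus strand: tcttccaaaaaaCACGTAtatatcattgac
ULI1, first, chrVI:206405-206434, minus strand: tctccggaggtaTACGTGttgcattttcaa
ULI1, next, chrVI:206558-206587, minus strand: agctatgtttgcCACGTAgtagctacaata
ULI1, farthest, chrVI:206595-206624, minus strand: aattgctgtggaCACGTAcgcataaagtag
DOG1, chrVIII:194813-194842, minus strand: tacgttgccactCACGTAagaagttcaaag
The motif began 160 bases before the start codon in KAR2, 139 in ERO1, 102 in SIL1 and 265 in YET2. In ULI1 the 3 copies began 165, 318 and 355 bases before it. The other 6 of the 12 genes held none of the UPRE motifs searched (UPRE-1, UPRE-2 and the letters AGGACAAC, both strands). Over all 5646 promoters of that length, 13.2% held TACGTG, 2.39% held CAGCGTG and 1.22% held AGGACAAC. Among the 86 promoters of genes higher by more than 2 on the log2 scale the shares were 31.4% and 5.81%, with 0 of the 86 holding AGGACAAC. Among the 1433 of genes lower at 4 h the shares were 11.4%, 1.67% and 0.977% in the same order of motifs. A match is a description of the letters in the window, not evidence of binding.

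In grr1-deficient cells at 4 h of tunicamycin, ER folding and ER exit genes rose, and genes for cytosolic and mitochondrial ribosomes, histones and daughter cell separation fell. The test of 4 h against 0 h passed its threshold for 2696 of 5855 genes tested, 46.0% (edgeR quasi-likelihood, adjusted p under 0.05 over all genes tested). Of these, 1259 were higher (21.5%) and 1437 were lower (24.5%), and the median log2 change over all genes tested was 0.04. The list counts below are to be read beside these shares. Changes past 2 on the log2 scale were fewer, with 103 genes higher and 53 lower. No called gene moved in opposite directions in the same-numbered replicates, and none had overlapping libraries, where 35.8% of all genes tested lay higher without overlap and 34.1% lower. Such values are shares of a library's reads, so less RNA per cell and fewer cells of a kind cannot be told apart.

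**Figure D1:**
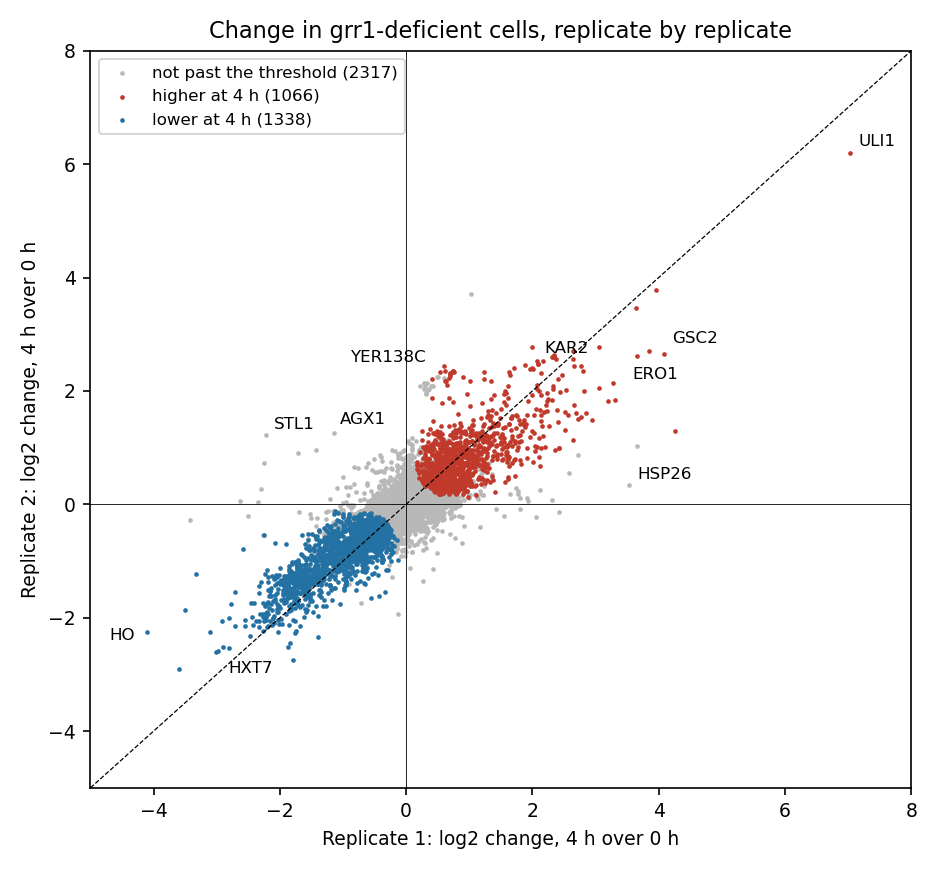
Log2 change at 4 h over 0 h in replicate 2 (vertical axis) against replicate 1 (horizontal axis) of grr1-deficient cells, 1 point per nuclear gene with a mean of at least 20 CPM; red genes were called higher, blue genes lower and grey genes neither, and the dashed line marks equal change. Most of the 4721 genes lie along the line, ULI1 lies at its upper end at 7.03 and 6.20, and STL1 and AGX1 lie left of 0 and above it.

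The replicates gave similar changes for most genes, though less so than in WT. Over 4721 nuclear genes with a mean of at least 20 CPM (reads scaled to library size by TMM), the change in replicate 1 and that in replicate 2 had a Pearson r of 0.852, against 0.988 in WT; genes are not independent, so this is a description. The median size of the log2 change was 0.517 in replicate 1 and 0.475 in replicate 2, and the median gap between them was 0.273. The gap was under 0.5 for 3633 genes (77.0%) and over 1 for 180 (3.81%). Between replicates the SD of log2 levels was 0.302 at 4 h and 0.355 at 0 h in grr1-deficient cells, and 0.0971 and 0.133 in WT. A fit of the 4 grr1-deficient libraries alone called 1642 genes, 652 higher and 990 lower, all of them among the 2696. Of 280 genes named by rule, 62 lost their call in that fit. Genes named below that were not called in it include COS10, OST2, EPS1, CLN3, YER138C, TRL1 and PTC2.

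Most luminal chaperones and oxidases of the ER rose. Of 19 genes in this list, 12 were higher and 1 was lower at 4 h, beside 21.5% and 24.5% of all genes tested. The median log2 change was 1.59, beside 0.04 over all genes tested. Replicate 1 gave a median of 1.44 and replicate 2 one of 1.48. KAR2 (YJL034W, chrX:381327-383375), the ER Hsp70, had 4905 and 4630 CPM in grr1-deficient cells at 4 h, against 777 and 853 CPM at 0 h. Both 4 h libraries lay far above both 0 h libraries, a log2 change of 2.55 ± 0.19 (SE, n = 2 each; adjusted p = 0.000106 in the edgeR fit across all genes). PDI1, the main protein disulfide isomerase, had 1591 and 1794 CPM at 4 h, against 308 and 305 CPM at 0 h. ERO1, the oxidase that recharges Pdi1, had 695 and 567 CPM at 4 h, against 54.7 and 92.3 CPM at 0 h. Neither gene overlapped between times, and the log2 changes were 2.47 ± 0.19 for PDI1 and 3.10 ± 0.26 for ERO1 (edgeR adjusted p = 0.000111 and 0.000132). ERO1 was the member whose replicates differed most among these, at 3.65 and 2.61.

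SIL1, a nucleotide exchange factor for Kar2, had 527 and 436 CPM at 4 h, against 62.9 and 62.9 CPM at 0 h. Its log2 change was 2.93 ± 0.14 (edgeR adjusted p = 4.47e-05), with no overlap. The other risers of the list were MPD1 (2.06), JEM1 (2.05), EUG1 (1.89), LHS1 (1.77), FPR2 (1.65), SCJ1 (1.59), ERJ5 (1.17) and MPD2 (0.95 on the log2 scale), which are disulfide isomerases, Kar2 co-chaperones and a prolyl isomerase. The calnexin CNE1 and the glucosidases CWH41 and ROT2, which trim and read N-linked glycans, gave −0.28, −0.32 and −0.30 and did not pass the test. EPS1, a membrane-bound disulfide isomerase, was called lower at −0.36. That single lower call was lost without either WT library at 4 h or either replicate 1 library. Without the 4 h library of replicate 2, CNE1 (−0.54), CWH41 (−0.51) and ROT2 (−0.47) were called lower as well, 4 in all.

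**Figure D2:**
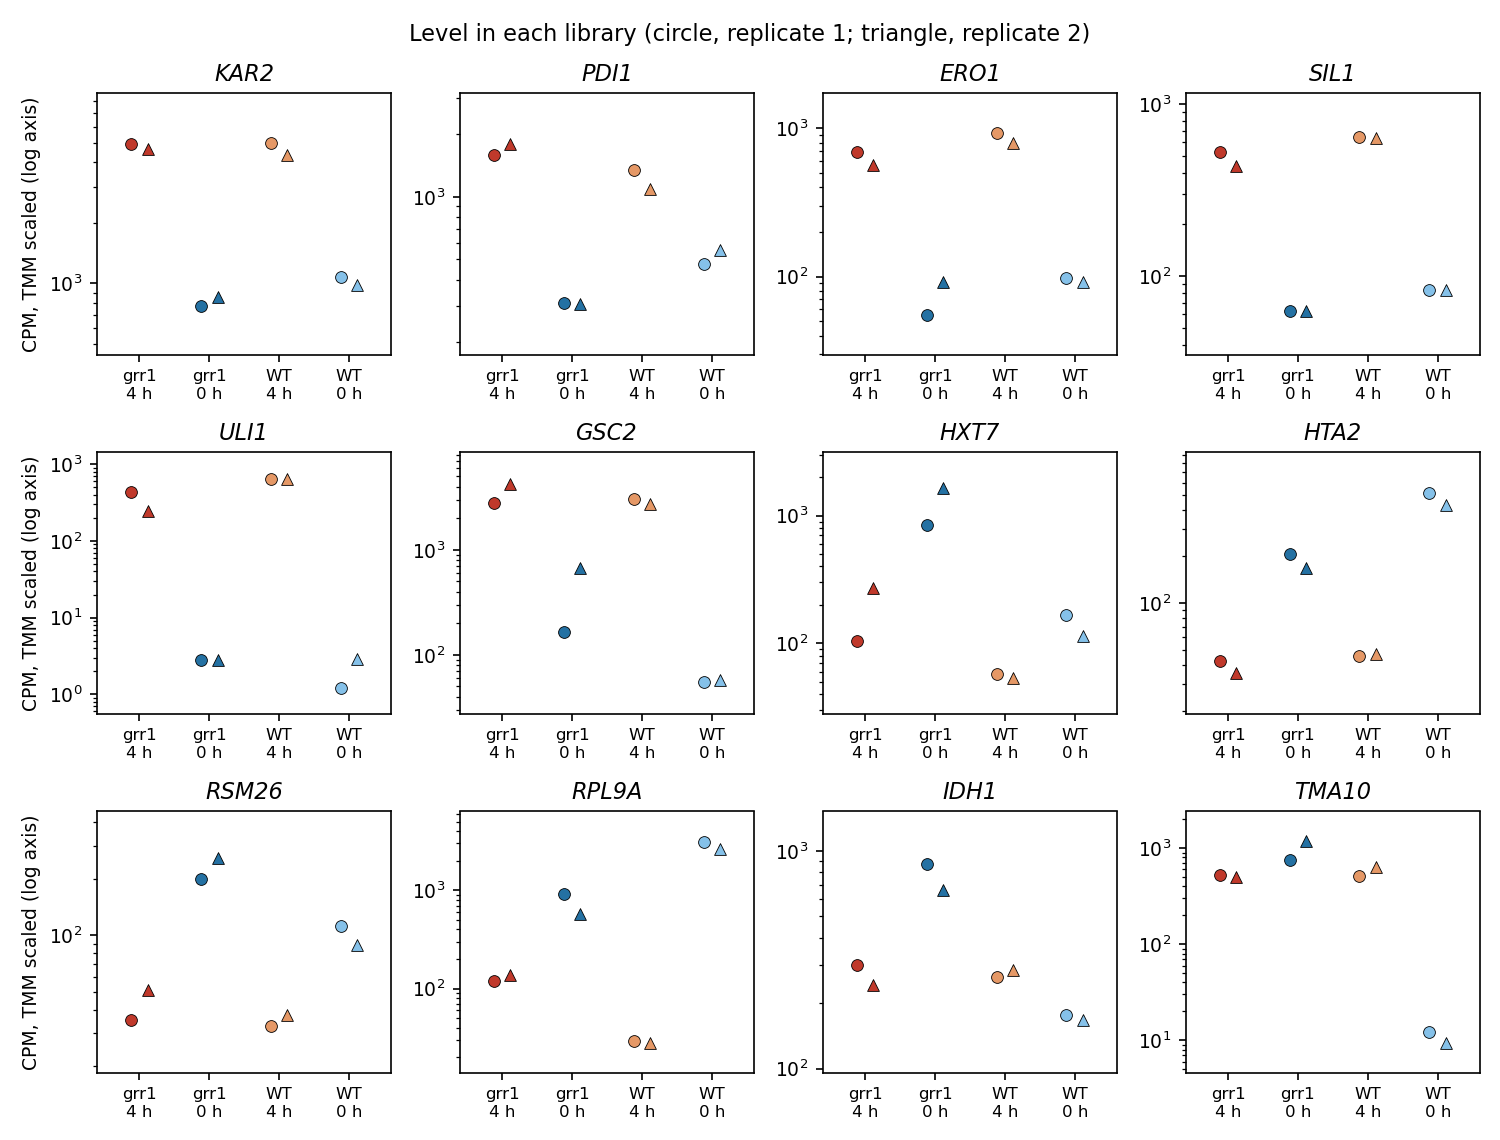
Level of 12 genes in every library (vertical log axis, TMM-scaled CPM; circles replicate 1, triangles replicate 2), from left to right grr1-deficient at 4 h and 0 h, then WT at 4 h and 0 h. KAR2, PDI1, ERO1, SIL1, ULI1 and GSC2 lie higher at 4 h than at 0 h in grr1-deficient cells, and the other 6 lie lower; for IDH1 and TMA10 the 2 genotypes moved in opposite directions.

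None of the 4 UPR signalling genes tested was called higher by edgeR or DESeq2, nor had any a rise at an unadjusted p under 0.05. TRL1, the ligase that joins the ends of cut HAC1 mRNA, and PTC2, an Ire1 phosphatase, were called lower at −0.44 and −0.52, and 0 or 1 of them without any 1 library other than the WT libraries at 4 h. Only 1 was called lower by DESeq2, with RLE scaling or with total counts. HAC1 had 1201 and 1488 CPM at 4 h, against 1346 and 1131 CPM at 0 h, with overlapping libraries and a log2 change of 0.12 ± 0.19 (edgeR adjusted p = 0.639). Spliced and unspliced HAC1 were not distinguished by these gene counts. IRE1 gave 0.13 ± 0.14 (edgeR adjusted p = 0.482), with 94.9 and 99.8 CPM at 4 h, against 93.5 and 84.8 CPM at 0 h. UBP3, the deubiquitinase named in the title of the study, had 73.3 and 90.0 CPM at 4 h, against 69.7 and 48.7 CPM at 0 h. It did not pass the test (log2 change 0.46 ± 0.19, edgeR adjusted p = 0.0733), and it passed without the 0 h library of replicate 1, at 0.73. Its cofactor BRE5 gave −0.37 ± 0.14 (edgeR adjusted p = 0.0621) and passed without the 4 h library of replicate 2, at −0.56.

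Outside the folding list, the largest rises held genes of several kinds. ULI1 (YFR026C, chrVI:205748-206257), named for its induction in the UPR, had 429 and 243 CPM at 4 h, against 2.78 and 2.80 CPM at 0 h. This was the largest change of the 12 top genes, 6.90 ± 0.44 on the log2 scale (edgeR adjusted p = 0.000123). MNC1 had 401 and 288 CPM at 4 h, against 25.4 and 20.5 CPM at 0 h, a log2 change of 3.90 ± 0.27. YET2, an ER membrane protein related to human BAP31, had 97.8 and 87.5 CPM at 4 h, against 7.42 and 7.47 CPM at 0 h. Replicates of YET2 were close at both times, and its log2 change was 3.63 ± 0.14 (edgeR adjusted p = 1.58e-05). RTA1 (3.27 ± 0.33), DIA1 (2.70 ± 0.18), DOG1 (2.63 ± 0.17), a deoxyglucose phosphate phosphatase, and COS10 (2.62 ± 0.56) rose too. COS10 belongs to a subtelomeric gene family whose copies share sequence, and it had 157 and 63.1 CPM at 4 h, against 24.6 and 10.3 CPM at 0 h. Its change was 3.40 without the 0 h library of replicate 1 and 1.82 without the 4 h library of replicate 1, and that of RTA1 was 3.93 without the 0 h library of replicate 2.

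Some genes of degradation from the ER and of glycosylation rose, where 21.5% of all genes tested were called higher and 24.5% lower. In ER-associated degradation 9 of 20 genes were higher, 11 did not pass and 0 were lower (median log2 change 0.38); DESeq2 also called 0 lower, and 0 were lower at an unadjusted p under 0.05. DER1, a retrotranslocation factor, had 136 and 108 CPM at 4 h, against 28.5 and 34.4 CPM at 0 h, a log2 change of 1.96 ± 0.16. Its paralog DFM1 (1.63 ± 0.11), the scaffold USA1 (1.34 ± 0.13) and the ligase subunit HRD3 (0.93 ± 0.18) rose as well. In assembly of the lipid-linked oligosaccharide, the pathway whose entry step tunicamycin blocks, 7 of 19 genes were higher and 2 lower, with a median of 0.12; the lower count was 0 without the 4 h library of replicate 1 and 1 without any other library except the 0 h library of replicate 2. ALG6, a glucosyltransferase, led at 1.34 ± 0.18. For oligosaccharyltransferase the share called higher, 2 of 9, was near that of all genes tested. Of the 9 oligosaccharyltransferase subunits, SWP1 (0.88 ± 0.16) and OST2 (0.57 ± 0.16) rose, and OST2 lost its call without the 4 h library of replicate 1 or the 0 h library of replicate 2; 2 subunits were called lower without the 4 h library of replicate 1. MCD4, which adds ethanolamine phosphate to the GPI anchor, had 1350 and 1335 CPM at 4 h, against 305 and 269 CPM at 0 h. Over the GPI list 6 of 27 genes were higher and 5 lower (3 lower without the 4 h library of replicate 1), shares near the 21.5% and 24.5% of all genes tested.

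Transferase genes of protein O-mannosylation, which attaches mannose to serine and threonine in the ER, rose for the most part. Of 9 genes, 5 were higher and 1 lower, with a median log2 change of 1.09; 3 were lower without the 4 h library of replicate 2. Among all genes tested 21.5% were called higher and 24.5% lower. PMT3 had 155 and 183 CPM at 4 h, against 50.3 and 42.8 CPM at 0 h, a log2 change of 1.86 ± 0.14 (edgeR adjusted p = 0.000106). PMT1 (1.13 ± 0.17), PMT2 (1.09) and PMT5 (1.17 ± 0.12) rose, PMT4 fell by 0.93, and PMT6 gave −0.32 without passing the test, and passed at −0.50 without the 4 h library of replicate 2. KTR1, a Golgi mannosyltransferase, rose by 1.19 ± 0.15.

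Many genes of the vesicle coat that carries cargo out of the ER rose. In the COPII list 13 of 24 genes were higher, 3 lower and 8 without a call, where 21.5% of all genes tested were higher and 24.5% lower. The median log2 change of the list was 0.54 (0.62 in replicate 1, 0.48 in replicate 2). SEC16, the scaffold of ER exit sites, had 225 and 275 CPM at 4 h, against 88.1 and 60.5 CPM at 0 h. Its log2 change was 1.75 ± 0.22 (edgeR adjusted p = 0.000506), and its libraries did not overlap. The cargo receptor ERV29 (1.51 ± 0.16) and the cargo adaptors SEC24 (1.42 ± 0.13), SFB2 (1.36 ± 0.13) and SFB3 (1.21) followed. The receptor ERV14 fell by 1.01. In COPI and retrieval 5 of 18 genes were higher, beside 21.5% of all genes tested, and 0 lower by edgeR (2 lower at an unadjusted p under 0.05), while DESeq2 called 1 lower, as did edgeR without the 0 h library of replicate 2. ERD2, the receptor that returns luminal proteins to the ER, rose by 1.00 ± 0.13. At the translocon SEC61, the channel subunit, rose by 1.18 ± 0.24, and SSH1, the subunit of a related channel, fell by 1.06 ± 0.13.

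The cell wall list moved both ways. Of 29 genes 12 were higher and 7 lower, beside 21.5% and 24.5% of all genes tested. Its share of lower genes was near that of all genes tested, and its median log2 change was 0.11. GSC2 (YGR032W, chrVII:548264-553951), the stress form of the beta-glucan synthase subunit, had 2766 and 4251 CPM at 4 h, against 164 and 672 CPM at 0 h. All 4 h values lay above all 0 h values, with replicate changes of 4.08 and 2.66 and a fitted change of 3.07 ± 0.64 (edgeR adjusted p = 0.00916). The change was 2.37 and 4.42 without the 0 h libraries of replicates 1 and 2, and the call was lost without the 4 h library of replicate 2, at 2.71 (edgeR adjusted p = 0.0553). Its constitutive paralog FKS1 gave −0.08. The yapsin YPS3 (2.23 ± 0.17), a cell surface protease, and NCW2 (2.21 ± 0.22) rose. CWP1, a wall mannoprotein, had 19.4 and 31.8 CPM at 4 h, against 148 and 183 CPM at 0 h, and fell by 2.68 ± 0.25. GAS1, a glucanosyltransferase, fell by 1.62. Calcium genes rose or did not pass the test: 5 of 13 were higher and 0 lower by edgeR or DESeq2 (1 lower at an unadjusted p under 0.05, and 1 called without the 4 h library of replicate 2), led by the kinase gene CMK2 at 2.09 ± 0.23 and the calcineurin regulator RCN1 at 1.65 ± 0.22.

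Many autophagy genes rose, and general stress genes had a higher median change in replicate 1 than in replicate 2. Among all genes tested 21.5% were called higher and 24.5% lower. Of 37 autophagy genes 20 were higher, 17 did not pass and 0 were lower by edgeR or DESeq2 (2 lower at an unadjusted p under 0.05), and 1 was lower without the 0 h library of replicate 1; the median log2 change was 0.73 (0.86 in replicate 1, 0.52 in replicate 2). ATG17, a scaffold of the initiating kinase complex, had 218 and 119 CPM at 4 h, against 30.5 and 29.5 CPM at 0 h, a log2 change of 2.49 ± 0.26. The vacuolar mannosidase AMS1 (2.65 ± 0.29) and the vacuolar protease PRB1 (2.57 ± 0.19) rose with no overlap. Of 31 general stress genes 11 were higher and 3 lower, with a median of 1.09 in replicate 1 and 0.44 in replicate 2; 20 were higher without the 0 h library of replicate 2, and 1 was lower without that library or either 4 h library. HSP42, a small heat shock protein, had 266 and 222 CPM at 4 h, against 59.5 and 85.5 CPM at 0 h, and rose by 1.75 ± 0.19. TMA10, which rose by 5.72 in WT, fell by 0.93 ± 0.24 (edgeR adjusted p = 0.0124), with 520 and 501 CPM at 4 h, against 761 and 1181 CPM at 0 h.

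Cytosolic ribosomal protein genes fell without exception among those tested. All 80 large-subunit and all 56 small-subunit genes tested were lower at 4 h, each group with a median log2 change of −1.60. Together these genes took 4.76% and 4.96% of reads at 4 h, against 14.0% and 13.7% at 0 h. RPL9A had 120 and 137 CPM at 4 h, against 907 and 571 CPM at 0 h, the lowest of the large-subunit genes at −2.53 ± 0.25 (edgeR adjusted p = 0.000187). RPS26B led the small subunit at −2.14 ± 0.16. Many of these genes are near-identical pairs, and the sources used here do not say how reads were shared between copies. Ribosome biogenesis followed, with 83 of 89 genes lower and 0 higher by edgeR, by DESeq2 or at an unadjusted p under 0.05 (median −1.19 in replicate 1 and −0.83 in replicate 2). NSR1, a nucleolar processing factor, had 58.7 and 66.0 CPM at 4 h, against 293 and 254 CPM at 0 h. Of 37 translation factors 27 were lower, and of 21 cytosolic tRNA synthetases 18 were lower. The elongation factor gene TEF1 was among the 6 largest losses of CPM, with 8091 and 8052 CPM at 4 h, against 16330 and 13910 CPM at 0 h.

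Mitochondrial ribosomal protein genes, which are nuclear, fell too. All 54 tested were lower, with a median log2 change of −1.72 (−1.80 in replicate 1 and −1.62 in replicate 2). RSM26 (YJR101W, chrX:618234-619034), a protein of the small mitochondrial subunit, had 35.5 and 50.9 CPM at 4 h, against 200.2 and 258 CPM at 0 h. Its libraries did not overlap, and it fell by 2.40 ± 0.22 (edgeR adjusted p = 0.000157). MRPL33 fell by 2.18 ± 0.22 and MRPL1 by 2.16 ± 0.16. The mitochondrial Hsp10 gene HSP10 fell by 1.45 ± 0.22, with 225 and 299 CPM at 4 h, against 579 and 855 CPM at 0 h.

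**Figure D3:**
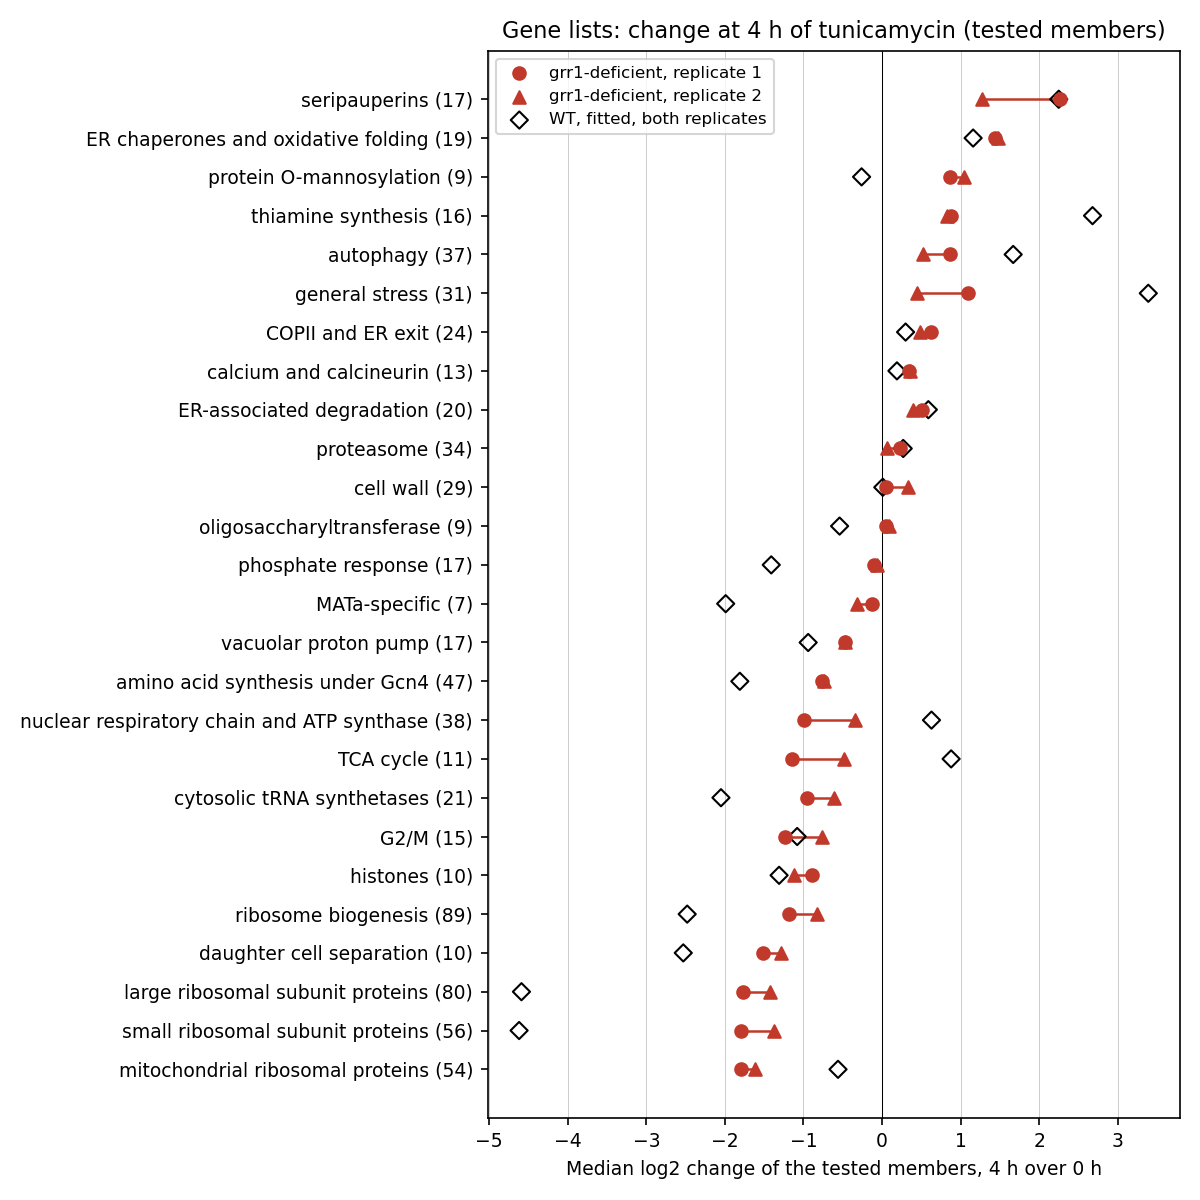
Median log2 change at 4 h over 0 h for 26 gene lists (horizontal axis; number of tested members in brackets), in replicate 1 (circles) and replicate 2 (triangles) of grr1-deficient cells and as fitted in WT (open diamonds). The replicates lie close for ER chaperones (1.44 and 1.48) and mitochondrial ribosomal proteins (−1.80 and −1.62) and apart for the nuclear respiratory chain (−0.99 and −0.34).

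The TCA cycle and respiratory chain lists had a lower median change in replicate 1 than in replicate 2. The medians were −1.15 and −0.48 for the TCA cycle and −0.99 and −0.34 for the respiratory chain. Both replicates had the same sign in 10 of 11 and 33 of 38 genes tested. Of 11 TCA cycle genes 5 were lower and 1 higher; 9 were lower without the 0 h library of replicate 2, 3 without the 4 h library of replicate 2, and 3 lower with 2 higher without the 0 h library of replicate 1. IDH1, a subunit of NAD-dependent isocitrate dehydrogenase, had 299.7 and 241 CPM at 4 h, against 872 and 663 CPM at 0 h, and fell by 1.50 ± 0.18 (edgeR adjusted p = 0.000336). IDH2 (−1.39 ± 0.19) and the aconitase ACO1 (−1.42 ± 0.22) fell too. The nuclear genes of the respiratory chain and ATP synthase summed to 12440 and 5875 CPM at 4 h, against 25110 and 8011 CPM at 0 h. Only 3 of 38 were called lower, and 35 were called lower with both replicate 2 libraries left out, where the spread was taken from the other groups. Leaving out the 0 h library of replicate 2 alone gave 18 lower and 1 higher. CYC1, cytochrome c, was 1 of the 3, with 198 and 108 CPM at 4 h, against 1028 and 450 CPM at 0 h; it fell by 2.27 ± 0.45, and by 1.57 without the 0 h library of replicate 1.

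Amino acid, pyrimidine and vacuolar pump genes fell more often than they rose, where 24.5% of all genes tested were called lower and 21.5% higher. Of 47 amino acid synthesis genes under the activator Gcn4, 32 were lower and 0 higher by edgeR, by DESeq2 or at an unadjusted p under 0.05 (median log2 change −0.65); 21 were lower and 1 higher without the 0 h library of replicate 1. ARG3, of arginine synthesis, had 46.8 and 31.4 CPM at 4 h, against 171 and 138 CPM at 0 h, and LEU9, of leucine synthesis, fell by 1.98 ± 0.24. Pyrimidine synthesis and salvage had 6 of 11 genes lower and 0 higher by edgeR, by DESeq2 or at an unadjusted p under 0.05. Purine synthesis had 4 of 16 genes lower, near the share of all genes tested, and 2 higher. The uracil salvage enzyme FUR1 had 30.7 and 39.5 CPM at 4 h, against 269 and 190 CPM at 0 h, and fell by 2.70 ± 0.20. FCY2, a purine and cytosine permease, fell by 2.25 ± 0.14. The vacuolar proton pump had 12 of 17 subunits lower, led by VMA7 at −0.95 ± 0.11; 7 were lower without either WT library at 4 h or without the 4 h library of replicate 2. Of 16 thiamine synthesis genes 10 were higher and 1 lower (2 without the 0 h library of replicate 2). THI20 had 166 and 130.1 CPM at 4 h, against 31.0 and 47.4 CPM at 0 h, while the near-identical THI5 and THI12 cannot be told apart with certainty.

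Grr1 is known to control hexose transporter genes through glucose sensing. HXT7 (YDR342C, chrIV:1154216-1155928), a high-affinity transporter, had 105 and 270 CPM at 4 h, against 848 and 1648 CPM at 0 h. Its near-identical neighbour HXT6 had 104 and 264 CPM at 4 h, against 821 and 1593 CPM at 0 h, and reads of the pair may not separate. HXT7 fell by 2.73 ± 0.55 (edgeR adjusted p = 0.00890), with the 4 libraries clear of each other by time, and by 3.59 without the 4 h library of replicate 2. HXT3, a low-affinity transporter, fell by 1.61 ± 0.25, to 17.0 and 21.0 CPM at 4 h, against 43.1 and 74.0 CPM at 0 h. HXT2 rose by 1.65 ± 0.29 and HXT5 by 1.59, which made 2 of 16 tested transporters higher and 3 lower, beside 21.5% and 24.5% of all genes tested; 5 were higher without the 0 h library of replicate 2. RGT1, the repressor of HXT genes, had 223 and 420 CPM at 4 h, against 143 and 96.9 CPM at 0 h, and rose by 1.42 ± 0.32. The regulator STD1, a known Grr1 substrate, rose by 1.03 ± 0.21, and MTH1 gave −0.11. Of the 18 genes of the SCF ligase and its substrates 6 were higher and 1 lower, and 2 were lower without the 0 h library of replicate 1 or the 4 h library of replicate 2. Beside these SCF counts, 21.5% of all genes tested were called higher and 24.5% lower. TYE7, a glycolytic activator, rose by 2.10 ± 0.22. The G1 cyclin gene CLN3 rose by 0.90, a call lost without either WT library at 4 h or without any of the 4 grr1-deficient libraries but the 0 h library of replicate 1. CLN1 and CLN2 gave −0.30 and 0.28 without passing the test, and CLN1 passed at −0.40 without the 4 h library of replicate 2.

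Genes expressed at mitosis and at cell separation fell together. Of 15 G2/M genes 10 were lower and 0 higher by edgeR, by DESeq2 or at an unadjusted p under 0.05, with a median log2 change of −0.89. CLB2, the main mitotic cyclin, had 28.9 and 45.0 CPM at 4 h, against 121 and 110 CPM at 0 h, and fell by 1.64 ± 0.19 (edgeR adjusted p = 0.000364). HOF1, a cytokinesis protein and a Grr1 substrate, had 7.51 and 12.8 CPM at 4 h, against 54.3 and 44.4 CPM at 0 h, and fell by 2.26 ± 0.23. The activator SWI5 fell by 1.51 ± 0.14. Of 10 daughter separation genes 9 were lower (median −1.36), among them the glucanase genes DSE4 (−2.39 ± 0.23) and DSE2 (−2.33 ± 0.22). ASH1, the daughter-specific repressor of HO, gave 0.18 and did not pass the test, and HO fell to 2.31 and 7.01 CPM at 4 h, against 48.1 and 35.3 CPM at 0 h, a change of −3.10, or −4.19 without the 4 h library of replicate 2. The core histone gene HTA2 had 42.4 and 35.2 CPM at 4 h, against 207 and 168 CPM at 0 h, and fell by 2.27 ± 0.16 (edgeR adjusted p = 0.000106). Of the 10 histone genes 8 were lower.

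Promoter letters were counted for some of the falling groups as well, over the same 500 bases and both strands. The PAC element GCGATGAG stood in 58.4% of ribosome biogenesis promoters, beside 5.12% of all promoters searched, and the RRPE letters AAAAATTTT in 67.4%, beside 9.81%. Rap1-like letters (ACCCNNACA) stood in 45.0% of large ribosomal subunit promoters, beside 5.46% of all. The Gcn4 letters TGACTC were found in 72.3% of the amino acid list, beside 12.9%. These lists are partly defined by such elements in the literature, so the shares describe the lists and not the response.

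The replicates parted in genes of the glyoxylate cycle and in some stress genes. In 180 of the 4721 well-measured genes the same-numbered changes differed by more than 1 on the log2 scale, with the change in replicate 1 higher for 78 and that in replicate 2 higher for 102. Of 13 glyoxylate cycle and gluconeogenesis genes measured well, the change was higher by more than 1 in replicate 2 for 7 and in replicate 1 for 0. The median gap over the 13, replicate 1 minus replicate 2, was −1.18. MLS1, malate synthase, had 32.4 and 4.26 CPM at 4 h, against 353 and 5.23 CPM at 0 h. ICL1, isocitrate lyase, had 140 and 38.2 CPM at 4 h, against 669 and 23.0 CPM at 0 h. For both, the replicate 1 library at 0 h was the high one, and neither passed the test (edgeR adjusted p = 0.238 and 0.365). Without the 0 h library of replicate 2 both were called lower, at −4.33 and −2.92. Without that of replicate 1 the signs turned, to 1.76 and 1.93 with no call, and with both replicate 1 libraries left out ICL1 was called higher at 0.73. Over the 17 genes of that list 3 were called lower, 13 without the 0 h library of replicate 2 and 1 without the 4 h library of replicate 1; 2 were called higher without the 0 h library of replicate 1, and 4 with both replicate 1 libraries left out.

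STL1, a glycerol transporter, and AGX1, an aminotransferase, were the 2 genes that moved by at least 1 on the log2 scale in opposite directions. STL1 had 14.0 and 8.90 CPM at 4 h, against 67.0 and 3.55 CPM at 0 h, changes of −2.22 and 1.22. AGX1 had 152 and 78.7 CPM at 4 h, against 338 and 32.5 CPM at 0 h, changes of −1.15 and 1.26. In each, the 2 libraries at 0 h lay farther apart than the 2 at 4 h. HSP26, a small heat shock protein, had 65.0 and 63.7 CPM at 4 h, against 5.17 and 50.2 CPM at 0 h, so its replicate changes were 3.53 and 0.34. INO1, of inositol synthesis, had 1473 and 1146 CPM at 4 h, against 725 and 87.2 CPM at 0 h, with changes of 1.02 and 3.71. Neither passed the test (edgeR adjusted p = 0.327 for HSP26 and 0.188 for INO1). Calls came and went with the 0 h libraries: without that of replicate 1, STL1 (1.66), AGX1 (1.81) and INO1 (3.90) were called higher. Without that of replicate 2, STL1 (−2.57) and AGX1 (−1.56) were called lower, and HSP26 (3.63) and INO1 (0.85) higher. The genes of this paragraph other than STL1 and AGX1, like MLS1 and ICL1, were chosen after their values were seen.

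**Figure D4:**
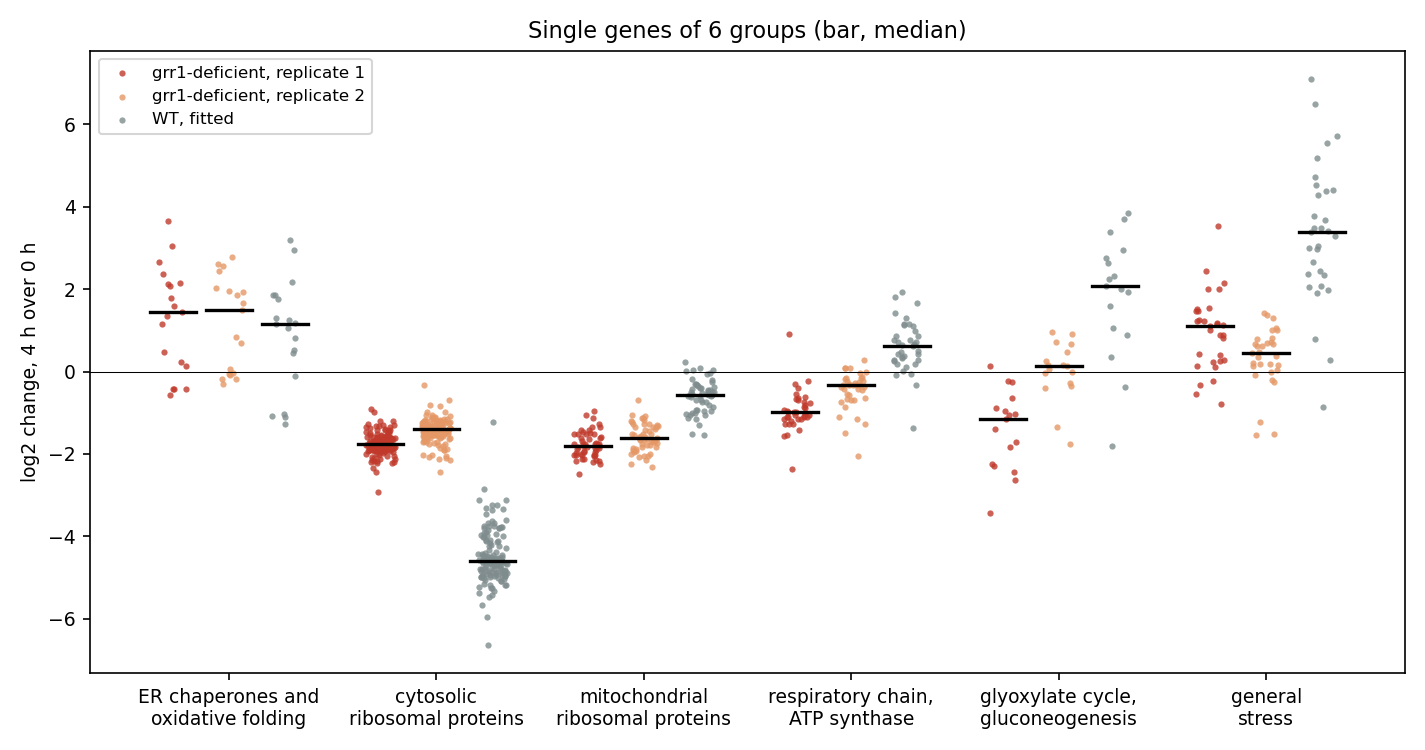
Log2 change at 4 h over 0 h of every tested member of 6 gene groups (vertical axis), with 1 point per gene and a black bar at the median; for each group grr1-deficient replicate 1 (red) and replicate 2 (orange) stand left of the fitted WT change (grey). Cytosolic ribosomal protein genes lie below 0 in both genotypes and lower in WT. Mitochondrial ribosomal protein genes have medians of −1.80 and −1.62 in grr1-deficient replicates 1 and 2, against −0.56 in WT. The glyoxylate group has medians of −1.14 and 0.13 in grr1-deficient replicates 1 and 2.

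Reading frames of Ty retrotransposons gained reads, more in replicate 2 than in replicate 1. Of 89 annotated frames 49 were tested, 35 were higher and 14 passed in neither direction, where 21.5% of all genes tested were higher. The 49 frames summed to 80879 and 238396 CPM at 4 h, against 41982 and 49032 CPM at 0 h. How many of the 35 calls rest on the 4 h library of replicate 2 was not tested. YER138C, the frame with the largest gain of CPM among them, had 3778 and 13130 CPM at 4 h, against 2323 and 2668 CPM at 0 h. The 4 h library of replicate 2 was the high one, and the changes were 0.70 and 2.30 on the log2 scale. Its fitted change was 1.76 ± 0.56 (edgeR adjusted p = 0.0398), and the call was lost without either library at 0 h, either WT library at 4 h, or the 4 h library of replicate 2, where the change was 0.58. Without the 4 h library of replicate 1 the change was 2.39. Over the 49 frames the median change was 0.67 in replicate 1 and 2.24 in replicate 2. Ty copies are near identical and the sources used here do not say how reads that map to several of them were treated, so the frames do not count as separate measurements. Among the seripauperins, a subtelomeric family of near-identical wall proteins, 11 of 17 tested were higher, and 6 without the 0 h library of replicate 1. PAU8 had 45 reads over both libraries at 4 h, against 0 at 0 h, at least 7.08-fold higher by the lower end of an exact 95% counting interval and 9.07-fold higher against a floor of 3 reads over the group, and its call was lost without either 0 h library. PAU6 had 71 reads at 4 h, against 4 at 0 h, a ratio of 10.7 with an exact 95% counting interval of 4.01 to 40.5, which covers counting error only.

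The grr1-deficient response differed from that of WT for 2182 of the 5855 genes tested, 37.3% (edgeR interaction, adjusted p under 0.05). For 1166 genes (19.9%) the log2 change was higher in grr1-deficient cells than in WT, and for 1016 (17.4%) it was lower. WT had 3841 calls of its own (65.6%), 1905 higher (32.5%) and 1936 lower (33.1%), and 1085 of its genes rose and 1162 fell by more than 1 on the log2 scale, against 446 and 661 in grr1-deficient cells. Of the 1259 genes higher in grr1-deficient cells 984 were also higher in WT, 28 were lower and 247 passed neither way. Of the 1437 lower genes 1134 were also lower in WT, 61 were higher and 242 passed neither way. With libraries scaled by their total counts in place of TMM, the median difference over all genes was −0.65 in place of 0.03, and 2937 genes differed, 451 higher and 2486 lower, so directions of small differences rest on the scaling.

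Nearly all ribosomal protein genes differed between the genotypes. The difference was higher in grr1-deficient cells for 79 of 80 large-subunit and 56 of 56 small-subunit genes, whose medians were −1.60 and −1.60 in grr1-deficient cells and −4.59 and −4.62 in WT. Both genotypes began apart: these genes took 14.0% and 13.7% of reads at 0 h in grr1-deficient cells, against 25.2% and 23.6% in WT. RPL9A fell by 2.53 in grr1-deficient cells and by 6.63 in WT (edgeR interaction adjusted p = 0.000138). Mitochondrial ribosomal genes went the other way, with a median of −1.72 in grr1-deficient cells, against −0.56 in WT. Here too the genotypes began apart, with sums of 7618 and 9327 CPM at 0 h in grr1-deficient cells, against 3436 and 3183 CPM in WT. At 4 h these genes summed to 2197 and 3092 CPM in grr1-deficient cells, against 2150 and 2291 CPM in WT. The difference was lower for 48 of 54 of them, for 31 or 26 without the WT 4 h library of replicate 1 or 2, and for 25 without the WT 0 h library of replicate 2.

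IDH1 fell by 1.50 in grr1-deficient cells and rose by 0.68 in WT (edgeR interaction adjusted p = 0.000388). In grr1-deficient cells 7 of 11 TCA genes had a lower change, beside 17.4% of all genes tested. The TCA genes summed to 11990 and 6414 CPM at 0 h in grr1-deficient cells, against 3042 and 2968 CPM in WT. At 4 h their sums were 5247 and 4024 CPM, against 4635 and 4854 CPM in WT. HXK1, the glucose-repressed hexokinase, had 292 and 409 CPM at 4 h, against 506 and 1163 CPM at 0 h, in grr1-deficient cells, and 389 and 421 CPM at 4 h, against 39.2 and 36.4 CPM at 0 h, in WT. The libraries of the 2 genotypes lay apart at 0 h and overlapped at 4 h (edgeR interaction adjusted p = 0.000973), and the difference of −4.67 was −3.95 without the 0 h library of replicate 2. VTC3, of vacuolar polyphosphate synthesis, rose by 0.95 ± 0.13 in grr1-deficient cells and fell by 1.58 in WT. In grr1-deficient cells 25 of 31 general stress genes and 21 of 37 autophagy genes had a lower change, again beside 17.4% of all genes tested. General stress genes summed to 4261 and 8231 CPM at 0 h in grr1-deficient cells, against 1508 and 1508 CPM in WT. At 4 h their sums were 6748 and 8599 CPM, against 13090 and 14450 CPM in WT. Autophagy genes summed to 1422 and 1611 CPM at 0 h, against 1044 and 1047 CPM in WT. At 4 h they summed to 2629 and 2269 CPM, against 2931 and 3020 CPM in WT.

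The leading ER folding genes rose in both genotypes. KAR2 rose by 2.55 in grr1-deficient cells and by 2.18 in WT, a difference of 0.37 that did not pass (edgeR interaction adjusted p = 0.291). ERO1 and SIL1 differed by −0.08 and −0.01 (edgeR interaction adjusted p = 0.879 and 0.986). The ERO1 difference was called in opposite directions with one replicate number left out of grr1-deficient cells, at 0.49 without replicate 2 and −0.56 without replicate 1. With total counts these 3 differences were −0.33, −0.80 and −0.69, and that of SIL1 was called. PDI1 rose by 2.47 in grr1-deficient cells and by 1.24 in WT (edgeR interaction adjusted p = 0.00717). The PDI1 difference of 1.23 was 1.09 and not called without the WT 4 h library of replicate 2, and 0.53 and not called with total counts. SEC16 rose by 1.75 and gave −0.08 in WT (edgeR interaction adjusted p = 0.00286), SEC61 rose by 1.18 and gave −0.15 in WT (0.0150), and PMT1 rose by 1.13 and gave −0.05 in WT (0.00623). The SEC61 difference was not called without either WT library of replicate 2, nor were those of SEC61 and PMT1 with total counts. The change was higher in grr1-deficient cells for 7 of 19 ER folding genes and lower for 0; 3 were higher without the WT 4 h library of replicate 2, 2 were lower without the 0 h library of replicate 1, and 1 was higher and 5 were lower with total counts. Beside these counts, the change was called higher for 19.9% and lower for 17.4% of all genes tested. YET2 went the other way from SEC16, SEC61 and PMT1, at 3.63 in grr1-deficient cells and 5.72 in WT (edgeR interaction adjusted p = 0.000204).

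**Figure D5:**
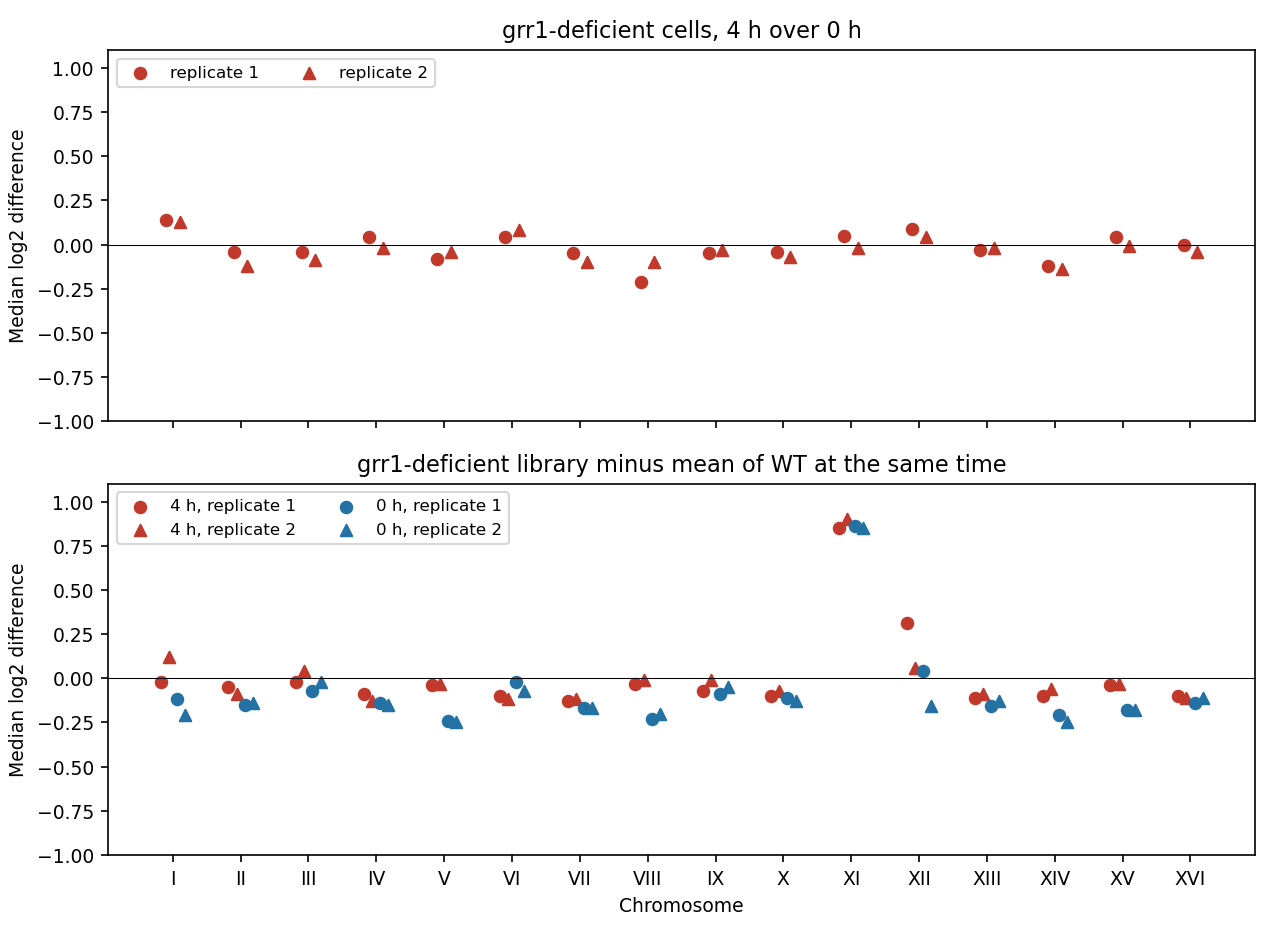
Median log2 difference over the genes of each nuclear chromosome (I to XVI along the horizontal axis). The upper panel shows 4 h over 0 h in grr1-deficient replicates 1 (circles) and 2 (triangles), between −0.21 and 0.14; the lower panel shows each grr1-deficient library minus the mean of the WT libraries of the same time, at 4 h (red) and 0 h (blue), with chromosome XI at 0.85 to 0.90.

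Levels were also compared chromosome by chromosome, because the response is a difference within 1 strain and a fixed difference between strains would drop out of it. The 285 genes of chromosome XI had a median log2 level above WT of 0.85 and 0.90 at 4 h and of 0.86 and 0.85 at 0 h in grr1-deficient replicates 1 and 2. The other 15 chromosomes lay between −0.25 and 0.31. The response itself had a median of 0.05 and −0.02 on chromosome XI in replicates 1 and 2, close to that of all genes. On chromosome XII (403 genes) replicate 2 lay below replicate 1 by 0.29 at 4 h and by 0.24 at 0 h. The number of DNA copies was not measured.

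The authors' deposited table for the same contrast lists 5719 genes, 1813 of them with an adjusted p under 0.05, 758 higher and 1055 lower. Of 5704 genes in both, 1795 were called in both and 0 of these differed in direction. The median absolute difference between the log2 changes of the authors' deposited table and those fitted here was 0.00328.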

How the data were processed

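Total RNA of W303 yeast, from cells broken in the lysis buffer of ribosome profiling, was sequenced on DNBSEQ-G400RS, per the labels' protocols. The submitters' processing notes name STAR 2.7.3a, cutadapt 2.6, build R64, DESeq2 and Bowtie2 2.3.5, with no order. Counts of reads per gene, in exons and coding regions, and RPKM values were deposited by the authors, who counted reads of 25 to 100 nt with plastid at an offset of 25, per the file headers; strand handling was not stated. The authors also deposited DESeq2 tables with a mean signal (baseMean), log2 fold changes, a Wald score and p-values; RPKM, signal and score were not used here, and the region lengths were used only to find the 105 regions of length 0.

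Of 6696 regions, 6008 took names from RefSeq and 182 from the authors' tables. Exon counts of all 8 libraries (4885844 to 12380049 reads in genes; 3 reads are 0.242 to 0.614 CPM) entered 1 fit with edgeR 4.0.16 in R 4.3.3 (TMM, filterByExpr, robust quasi-likelihood, 1 coefficient per group, Benjamini-Hochberg over all genes tested, threshold 0.05), which kept 5855 genes. Fitted log2 changes use a prior count of 0.125, and changes within a replicate number log2(CPM + 0.5). The fit was tested on simulated data. Genes were named by a rule: GRR1, HAC1, IRE1, UBP3, BRE5, KAR2, PDI1 and ERO1; among nuclear genes with a mean of at least 20 CPM, the 12 called genes highest and the 12 lowest in the weaker of their replicates, and up to 6 that moved by at least 1 log2 in opposite directions in the replicates; the 6 with the largest gain and the 6 with the largest loss of CPM; up to 4 called members of each list with the largest change, or up to 2 where none was called; and the 5 highest and 5 lowest called differences from WT. Other list members and genes were named after their values were seen. The members and lists were chosen with earlier results of these data known. P-values measure the spread between libraries that the labels call biological replicates. That spread was pooled over all groups, and WT libraries lay closer together than grr1-deficient ones. No value column was left unmapped.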

Additional observations from a re-analysis of the deposited data

Results flagged for a closer look

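The response to 4 h of tunicamycin differed between grr1-deficient and WT cells for 2182 genes, by the edgeR test of the difference between the 2 responses (adjusted p under 0.05 over all genes tested). The values that follow are log2 changes in grr1-deficient cells minus those in WT, and each gene passed that test.

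Among acid phosphatase genes the difference was 5.38 for PHO3, 4.38 for PHO5 and 3.93 for PHO12. PHO5 and PHO12 belong to a family of near-identical copies whose reads may not separate. PHO3 fell by 2.00 in grr1-deficient cells and by 7.38 in WT. MFA2, a gene for the a-factor pheromone, differed by 3.96; it gave −0.28 in grr1-deficient cells without passing the test and fell by 4.24 in WT. RPL9A differed by 4.11.

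The lowest differences were in genes that rose strongly in WT. HSP12, a small stress protein of the membrane, differed by −6.95, with 353 and 793 CPM at 4 h, against 120.2 and 916 CPM at 0 h, in grr1-deficient cells, and 1724 and 2347 CPM at 4 h, against 16.9 and 12.8 CPM at 0 h, in WT. The HSP12 difference lost its call without any 1 of the 4 WT libraries or either grr1-deficient library at 4 h, with values of −6.48 to −7.63, and it was called at −4.84 and −7.75 without the grr1-deficient 0 h library of replicate 2 or 1. TMA10 differed by −6.65, with 511 and 636 CPM at 4 h, against 12.3 and 9.36 CPM at 0 h, in WT. POT1, the peroxisomal thiolase, differed by −5.63, HSP26 by −5.23 and ARO10, a decarboxylase of amino acid breakdown, by −5.01. The HSP26 difference was likewise not called without any 1 WT library or either grr1-deficient library at 4 h, nor with the replicate block or without the low-count filter, and it was −2.85 without the grr1-deficient 0 h library of replicate 2 and −6.10 without that of replicate 1. The ARO10 difference was −3.55 and −5.64 without the grr1-deficient 0 h library of replicate 1 or 2. The POT1 difference was −7.13 and −4.87 without the WT 0 h library of replicate 1 or 2.

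PDI1 differed by 1.23 and BRE5 by 0.67. The BRE5 difference was not called without the WT 4 h library of replicate 1 or 2, the WT 0 h library of replicate 2, or either replicate 2 library of grr1-deficient cells, and was −0.02 with total counts.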

How the results depend on the processing

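The 2696 calls of 4 h against 0 h in grr1-deficient cells (1259 higher, 1437 lower) moved past 1.5 times only with the 4 grr1-deficient libraries alone, at 1642 (652 higher, 990 lower). Leaving out single libraries gave 2267 to 2724, total counts 2434, DESeq2 2597, and both replicate 2 or replicate 1 libraries left out 3388 or 3259, where the spread came from the other groups. Of these calls 0 changed direction under any alternative but coding-region reads, where 2 of 2685 did. With the replicate number as a block, 3042 genes were called, 2650 of them among the 2696. Deviations of same-numbered libraries correlated at 0.475 in grr1-deficient cells and −0.0539 in WT, and the labels do not say that numbers mark a shared culture. The 2182 differences between genotypes (1166 higher, 1016 lower) were 2937 with total counts (451 higher, 2486 lower), 2560 with the block and 3467 without both replicate 1 libraries (1782 higher, 1685 lower). Leaving out single libraries gave 1272 to 2470 (higher 695 to 1350, lower 556 to 1120), lowest without a WT library.

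Of 280 genes named by rule, 69 lost their call under at least 1 alternative, 62 of them in the fit of 4 libraries, and 11 gained one. Signs turned, with the cause not tested, for 11 genes without a call. Coding-region reads gave −2.77 for GRR1 and 0.02 for MFA2. Without both replicate 2 libraries HAC1 was −0.19, and without both replicate 1 libraries STL1 was 1.32, AGX1 1.27 and HSP12 −0.21. Leaving out single libraries gave −0.06 to 0.26 for HAC1, −2.57 to 1.66 for STL1, −1.56 to 1.81 for AGX1, −5.89 to 7.61 for Q0092, −9.71 to 9.02 for ATP8, −0.24 to 2.10 for MFA1, −1.14 to 0.01 for BAR1, −0.64 to 0.04 for MFA2, −0.20 to 0.02 for PHO12 and −0.69 to 2.25 for HSP12. With 3 reads worth 0.242 to 0.614 CPM, genes near that level carry only counting ratios.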

Other observations

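Nutrient genes outside the lists described above moved both ways in grr1-deficient cells. Of 22 iron genes 8 were lower and 3 higher at 4 h, beside 24.5% and 21.5% of all genes tested; FET3, the multicopper ferroxidase, had 155 and 157 CPM at 4 h, against 827 and 523 CPM at 0 h, and fell by 2.11 ± 0.22. ZAP1, the zinc-responsive activator, had 71.7 and 57.3 CPM at 4 h, against 16.7 and 12.9 CPM at 0 h, and rose by 2.11 ± 0.18, while the vacuolar zinc transporter ZRC1 fell by 0.95. The ammonium permease MEP2 fell by 2.05 and the dicarboxylic amino acid permease DIP5 by 1.96. The phosphate transporter PHO84 fell by 1.81.

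The surface genes named here rose, and the lipid genes named here moved both ways. Of 4 flocculin genes tested 3 were higher at 4 h, beside 21.5% of all genes tested. They were FLO5 (1.59), FLO9 (1.21) and FLO10 (1.04 on the log2 scale), which share repeats that reads may not separate. DAN4, a wall mannoprotein, had 22.3 and 25.1 CPM at 4 h, against 2.92 and 1.87 CPM at 0 h, a log2 change of 3.27 ± 0.28. ORM2, a regulator of sphingolipid synthesis in the ER membrane, had 145 and 81.4 CPM at 4 h, against 24.9 and 26.1 CPM at 0 h, and rose by 2.15 ± 0.25. ELO3, a fatty acid elongase, fell by 1.88, and ERG4, of the last step of ergosterol synthesis, by 1.62.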
